A study of Mus musculus with 5 samples.

Results

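Marker genes of cortical inhibitory interneurons, 9 in all, were followed in RNA from projection neurons of mouse S1. They were the GABA genes *Gad1*, *Gad2*, and *Slc32a1*, the neuropeptide genes *Sst*, *Npy*, *Vip*, and *Cck*, and the genes *Lhx6* and *Reln*. They were chosen by name among 19938 genes with a named probe set, as a check on RNA from cells other than the captured ones. All 9 were on the array, each read by 1 probe set, which is a group of probes for 1 gene. The 5 arrays held association neurons, which project from S1 to M1 of the same hemisphere, in L6b, L5, and L2/3, and callosal neurons, which project to the contralateral S1, in L5 and L2/3. There was 1 array per group. All groups came from ICR mice at postnatal day 24, with Green RetroBeads as the retrograde tracer, injected 3 days earlier into M1 for association neurons and into the contralateral S1 for callosal neurons. Before birth the brains had been electroporated with a tdTomato plasmid aimed at L2/3 neurons, and about 1000 labeled somata per group were collected by laser microdissection. The labels do not say how many animals were pooled. Signals are log2 values minus the median of the array, so 0 is the signal of the middle probe set, and a difference of 1 is 2-fold. With 1 array per group no spread between replicates could be measured, so the values are a description without p-values.

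Cortical interneurons make GABA with the glutamic acid decarboxylases GAD67, from *Gad1*, and GAD65, from *Gad2*, and load it into vesicles with the transporter VGAT, from *Slc32a1*. Their classes are told apart by peptides and calcium-binding proteins. Somatostatin cells and parvalbumin cells arise from the medial ganglionic eminence, where *Lhx6* directs their fate, and VIP cells arise from the caudal ganglionic eminence. Their markers are not all private to interneurons, since many pyramidal neurons make *Cck* and, in layer 1, Cajal-Retzius cells make *Reln*. In RNA pooled from many cells, fewer contributing cells and less RNA per cell cannot be told apart. RNA made in the labeled neurons and RNA taken in with neighbouring cells cannot be told apart either.

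Markers of the labeled layers and a gene of excitatory neurons were checked first. The L6b markers *Ccn2* (also named *Ctgf*), *Cplx3*, and *Nr4a2* were at least 2-fold higher in association L6b than in each other array, and *Nxph4* was highest there, at 0.84 against 0.00 to 0.43. The L5 markers followed the labels in part. *Fezf2* stood at 1.39 and 2.04 in association and callosal L5, against -0.34 to 0.32 in the other arrays, whereas *Bcl11b* was highest in association L6b, at 0.80. *Etv1* was highest in association L2/3, at 2.75, and *Rbp4* stood at 1.12 in callosal L5 against 2.20 in callosal L2/3. The L2/3 markers *Cux1*, *Rasgrf2*, and *Pou3f2* were all higher in the L2/3 arrays than in each other array. *Cux2* was highest in association L2/3. In callosal L2/3 it exceeded association L6b and L5 by no more than their array medians differ, so that order rests on the medians. *Slc17a7*, which encodes the vesicular glutamate transporter of cortical excitatory neurons, had signals of 3.98, 4.01, and 3.84 in association L6b, L5, and L2/3, and of 4.23 and 4.47 in callosal L5 and L2/3. This gene does not stand for all excitatory neuron genes. The 13 described further on had a median difference of -0.58 between association L6b and the mean of the other arrays. Any pair of arrays correlated with a Pearson r of 0.918 to 0.938 across the 35556 probe sets, which are not independent replicates.

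The genes of GABA synthesis and loading stood above the array median in all 5 arrays. *Gad1* had signals of 0.45, 2.00, and 1.46 in association L6b, L5, and L2/3, and of 1.18 and 1.30 in callosal L5 and L2/3. Association L6b was the lowest array by 0.73, and association L5 the highest. *Gad2* stood at 0.25, 0.45, and 2.18 in association L6b, L5, and L2/3, and at 1.0 and 0.54 in callosal L5 and L2/3. Its signal in association L2/3 was at least 2-fold higher than in each other array, as it was for 2.34% of the 12632 genes kept, meaning those at or above the array median somewhere among the 5 arrays. *Slc32a1* spanned less, with 1.93, 2.15, and 2.74 in association L6b, L5, and L2/3, and 1.83 and 2.18 in callosal L5 and L2/3. Its deposited value was identical, 7.92, in association L5 and callosal L2/3. The decarboxylases did not share an order of arrays, since *Gad1* was highest in association L5, where *Gad2* was second lowest. The highest array of both *Gad2* and *Slc32a1* was association L2/3.

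The neuropeptide genes held the widest differences. *Sst*, the gene of somatostatin, had signals of 2.45, 3.78, and 4.23 in association L6b, L5, and L2/3, and of 4.66 and 4.24 in callosal L5 and L2/3. Association L6b was lower than the nearest array by 1.33, and association and callosal L2/3 were 0.01 apart. *Npy*, the gene of neuropeptide Y, had 2.40, 4.35, and 4.07 in association L6b, L5, and L2/3, and 1.65 and 4.01 in callosal L5 and L2/3. Its signals fell into a low pair, association L6b and callosal L5, and a high group of the 3 other arrays within 0.34 of each other. *Vip*, the gene of vasoactive intestinal peptide, stood at 0.73, -0.13, and 1.74 in association L6b, L5, and L2/3, and at 2.14 and 2.03 in callosal L5 and L2/3. It was the sole gene of the 9 with a signal below the array median, in association L5. *Cck*, the gene of cholecystokinin, had the narrowest range of the 4 peptide genes, with 4.97, 5.00, and 5.13 in association L6b, L5, and L2/3, and 5.52 and 5.36 in callosal L5 and L2/3. Its deposited value in association L6b and L5 was the same, 10.77.

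**Figure D1:**
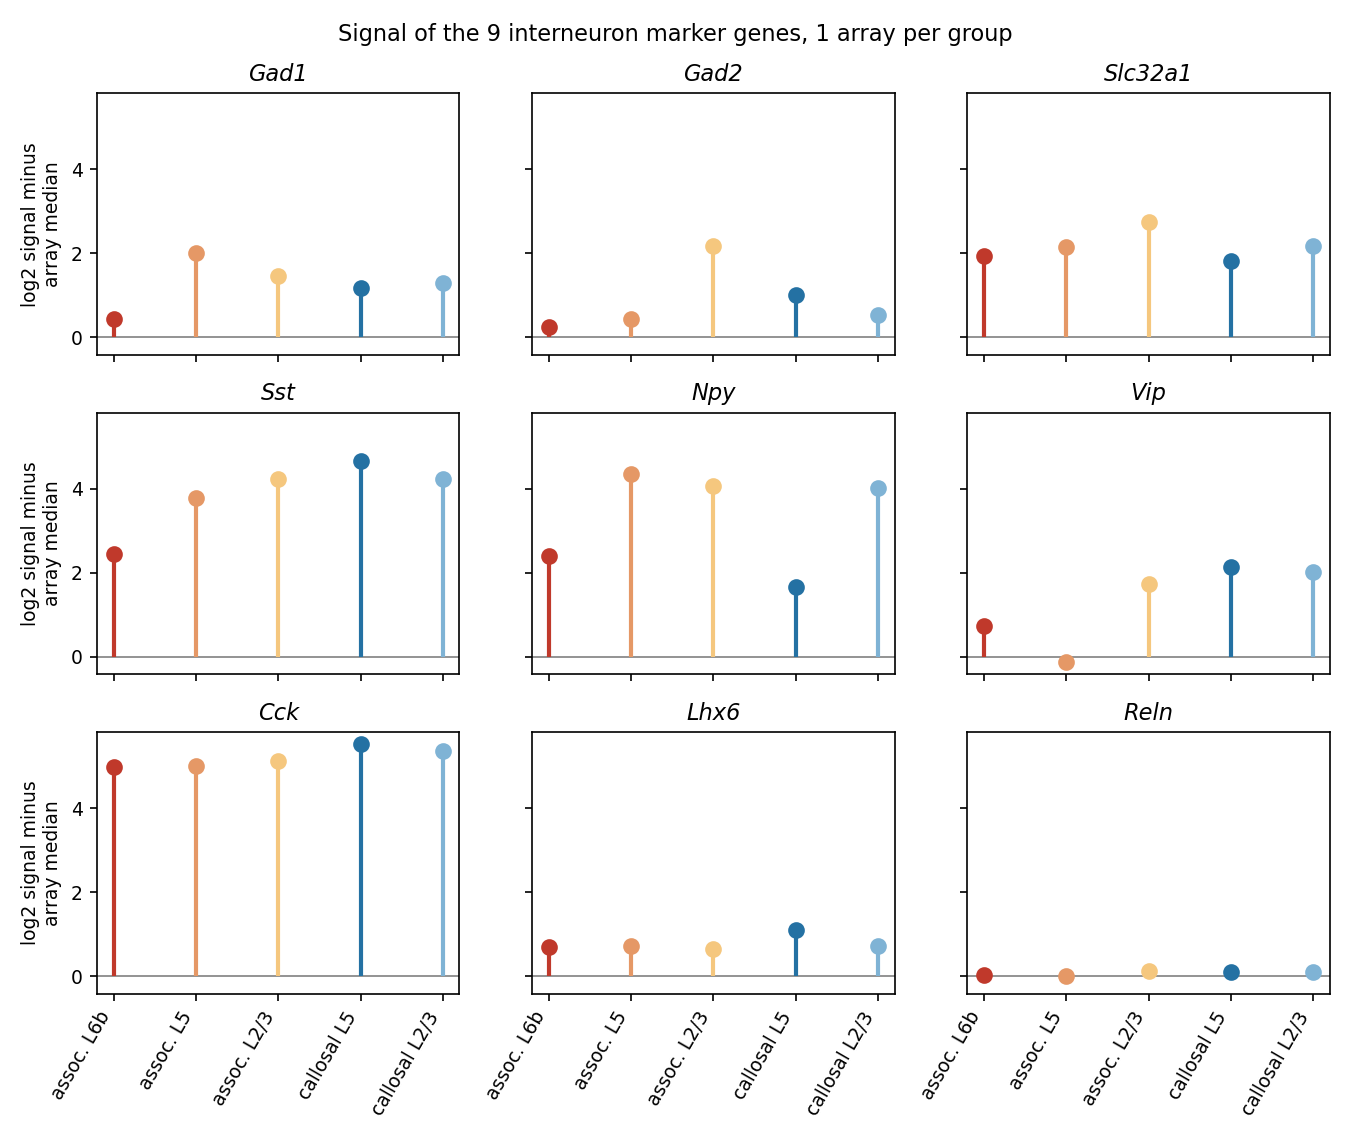
Log2 signal minus the array median (vertical axis) of the 9 genes in the 5 arrays (horizontal axis), 1 point per array, with a line to the array median at 0. *Sst* is lowest in association L6b (2.45), *Npy* in callosal L5 (1.65), and *Vip* in association L5 (-0.13), while *Reln* stays between 0.01 and 0.12.

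Transcription of several neuropeptide genes is classically driven through the cAMP response element TGACGTCA, which CREB binds, or through its half-site TGACG. The RefSeq promoters (GRCm38.p6, 250 bases before to 50 after the start) of all 9 genes were searched on both strands for these letters, and every full element also counts as a half-site. The full element stands in the *Sst* promoter alone of the 9 genes, 48 bases before the start, and 1.79% of 32851 promoters hold it. The half-site stands in the promoters of *Sst*, *Vip*, *Cck*, and *Gad2*, and 20.8% of all promoters hold it. The windows of the 3 peptide genes, from 95 to 21 bases before the start, are shown as the control sequence for which these genes are known. Capitals mark the element or half-site, which reads CGTCA where it lies on the other strand. They lie at chr16:23890865-23890939 (minus strand), chr10:5639123-5639197 (plus strand), and chr9:121495715-121495789 (minus strand).
*Sst*: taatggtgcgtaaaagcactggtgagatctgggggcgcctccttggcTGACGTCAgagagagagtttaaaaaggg
*Vip*: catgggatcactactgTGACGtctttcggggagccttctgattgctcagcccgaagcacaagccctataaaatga
*Cck*: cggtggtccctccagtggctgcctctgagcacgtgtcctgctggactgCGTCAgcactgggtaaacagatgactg
The arrays measured no promoter activity, and the letters are a description of these windows.

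*Lhx6* and *Reln* varied little. *Lhx6*, whose product keeps somatostatin and parvalbumin cells on their path, had signals of 0.70, 0.73, and 0.64 in association L6b, L5, and L2/3, and of 1.11 and 0.73 in callosal L5 and L2/3. Callosal L5 was the highest array, and the other 4 lay within 0.09 of each other. *Reln*, which encodes the secreted glycoprotein reelin, stood at 0.03, 0.01, and 0.12 in association L6b, L5, and L2/3, and at 0.09 in both callosal arrays. Its deposited value was 5.83 in 4 arrays and 5.78 in association L5, so the order of those 4 arrays after subtraction of the medians rests on the medians. An identical deposited value in at least 2 arrays was found for 4 of the 9 genes, *Slc32a1*, *Cck*, *Lhx6*, and *Reln*, against 66.7% of all genes kept.

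Over the 5 arrays, the highest and lowest signals were 6.50-fold apart for *Npy*, 4.82-fold for *Vip*, and 4.63-fold for *Sst*. They were 3.81-fold apart for *Gad2*, 2.93-fold for *Gad1*, and 1.88-fold for *Slc32a1*. For *Cck* the factor was 1.46, for *Lhx6* 1.39, and for *Reln* 1.08. Thus 5 of the 9 genes spanned at least 2-fold, against 29.5% of the 12632 genes kept, and 3 spanned at least 4-fold, against 9.75%. Of the 9, 7 reached the 75th percentile of an array in at least 1 array, and all 5 that spanned at least 2-fold were among them, where 49.6% of the 6565 genes that did so spanned as much. Of those 6565 genes, 17.9% spanned at least 4-fold. As a guide to how far dim probe sets drift between arrays, 24 genes of other organs, such as the liver gene *Alb* and the sperm gene *Prm1*, spanned 0.06 to 0.71 with a median of 0.155 log2. The spans of *Reln* (0.11), *Lhx6* (0.47), and *Cck* (0.55) lay inside that range and the spans of the other 6 genes above it. The median span was 0.53 over all genes kept and 0.98 over those at the 75th percentile. Of 9 housekeeping genes, 2 spanned at least 2-fold, and the widest spanned 1.06.

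**Figure D2:**
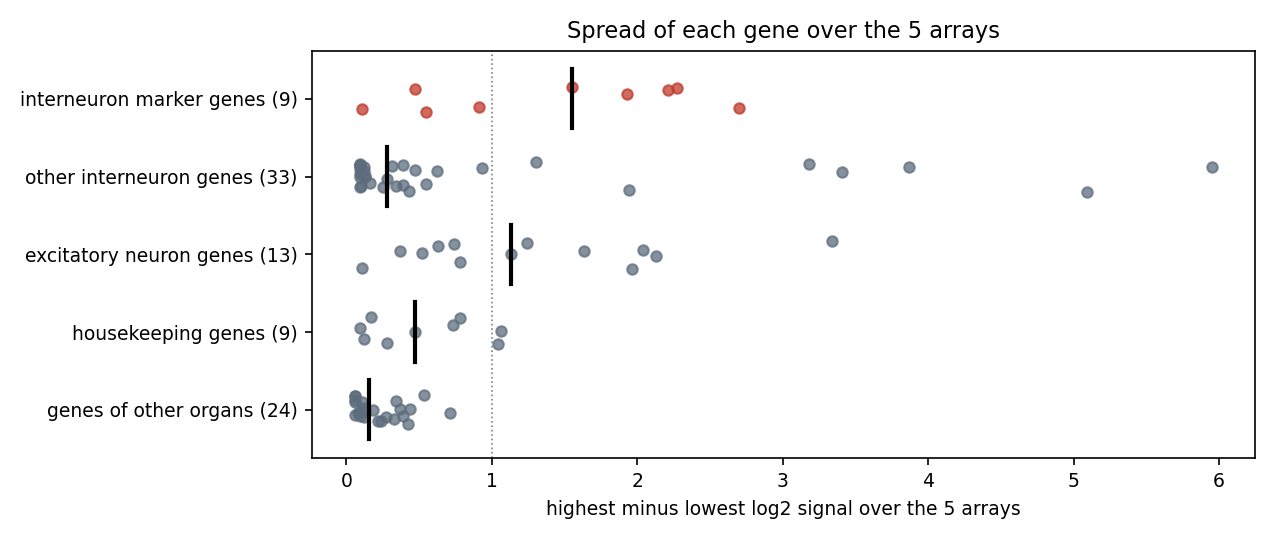
Highest minus lowest log2 signal over the 5 arrays (horizontal axis) of the genes of 5 lists (vertical axis, number of genes in parentheses), 1 point per gene, with black bars at the list medians and a dotted line at 2-fold. The median of the 9 interneuron marker genes (red) is 1.55, and 24 genes of other organs stay at or below 0.71.

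In association L6b, all 9 genes stood below the mean of the other 4 arrays, against 62.8% of the genes kept, although *Reln* stood above it in 3 of 4 other scalings and *Lhx6* in 1. The median difference was -0.72 log2, against -0.06 over all genes kept. The difference was -1.78 for *Sst*, a 3.43-fold lower signal, and -1.12 for *Npy*, 2.17-fold lower. It was -1.03 for *Gad1*, 2.05-fold lower. *Gad2* stood at -0.79, *Vip* at -0.72, *Slc32a1* at -0.29, *Cck* at -0.28, *Lhx6* at -0.10, and *Reln* at -0.05. At least 2-fold below the mean were 3 genes, *Sst*, *Npy*, and *Gad1*, against 6.55% of the genes kept and 12.1% of those at the 75th percentile. The count was 2 as deposited, without *Gad1* at -0.97, and 1 after quantile normalization, where *Sst* alone passed. Without association L5 it was 2, *Sst* and *Vip*, and without association L2/3 or callosal L2/3 it was 2, *Sst* and *Gad1*. The median difference of -0.72 was -0.41 without association L2/3.

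Association L6b was the single lowest array for 4 genes, *Gad1*, *Gad2*, *Sst*, and *Cck*, against 30.5% of the genes kept, and 3 as deposited, where *Cck* was tied, against 17.4%. By at least 2-fold this held for *Sst* alone, against 2.82% of the genes kept and 5.35% of those at the 75th percentile. Without the callosal L5 array, *Npy* joined *Sst* and the count was 2, and without the association L5 array, *Vip* joined and the count was also 2. That call of *Vip* rests on a difference of -1.01 from association L2/3, which was -0.92 as deposited. Without callosal L5 the difference of *Npy* from the mean of the remaining arrays was -1.74. No gene of the 9 was higher in association L6b than in each other array, against 21.3% of the genes kept. On the linear scale, with the array median as 1, the 9 signals summed to 52.8, 79.5, and 90.5 in association L6b, L5, and L2/3, and to 89.8 and 91.3 in callosal L5 and L2/3. Without *Cck*, the other 8 signals summed to 21.4, 47.5, and 55.5 in association L6b, L5, and L2/3, and to 43.9 and 50.3 in callosal L5 and L2/3. Association L6b also had the lowest sum of the 9 housekeeping genes, 308 against 344 to 396. The same held for the 8 astrocyte genes, 91.8 against 111 to 124, and the 33 other interneuron genes described further on, 58.7 against 81.7 to 133. Bright genes weigh most in such sums. *Aldoc* of the astrocyte list stood at 2.41 in association L6b, against 4.61 to 5.41 elsewhere. Of the interneuron list, *Pvalb* stood at -1.38 against 2.26 to 4.57, and *Lamp5* at 2.41 against 3.37 to 5.59. The median differences of the housekeeping, astrocyte, and interneuron lists were -0.06, -0.08, and -0.05, so these sums do not show a drop across each list. The part of these lower sums in the result was not tested.

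The other arrays were lowest for some of the 9 genes and highest for others, apart from callosal L2/3. Association L5 was the single lowest array for *Vip* and *Reln*, against 19.6% of the genes kept, and the single highest for *Gad1* and *Npy*, against 16.8%. Association L2/3 was lowest for *Lhx6*, against 19.6%, and highest for *Gad2*, *Slc32a1*, and *Reln*, against 27.4%. Callosal L5 was lowest for *Slc32a1* and *Npy*, against 11.9%, and highest for 4 genes, *Sst*, *Vip*, *Cck*, and *Lhx6*, against 15.4%. Callosal L2/3 was neither lowest nor highest for any of the 9, against 15.5% and 15% of the genes kept.

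Genes of excitatory neurons and of myelin also differed between association L6b and the other arrays. Of 13 excitatory neuron genes, 7 were lower in association L6b than in each other array, 3 of them by at least 2-fold, beside 30.5% and 2.82% of the genes kept, and their median difference from the mean of the other 4 was -0.58. The 3 were *Camk2a*, of a synaptic calmodulin kinase, at -2.71, *Nrgn*, of the calmodulin-binding protein neurogranin, at -1.88, and *Slc30a3*, of a vesicular zinc transporter, at -1.20, and *Slc17a7* stood at -0.16. The linear signals of the 13 genes summed to 120 in association L6b, and elsewhere to 165 to 217. Of 9 myelin genes, 5 were higher in association L6b than in each other array, beside 21.3% of the genes kept, with a median difference of 1.16 and a summed linear signal of 62.7 in association L6b against 15.6 to 52.3 in the other arrays. *Mog*, of a glycoprotein of the myelin surface, stood at 3.31 and *Opalin*, of oligodendrocytes, at 1.68. The part of these genes in the lower signals of the interneuron genes was not tested.

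**Figure D3:**
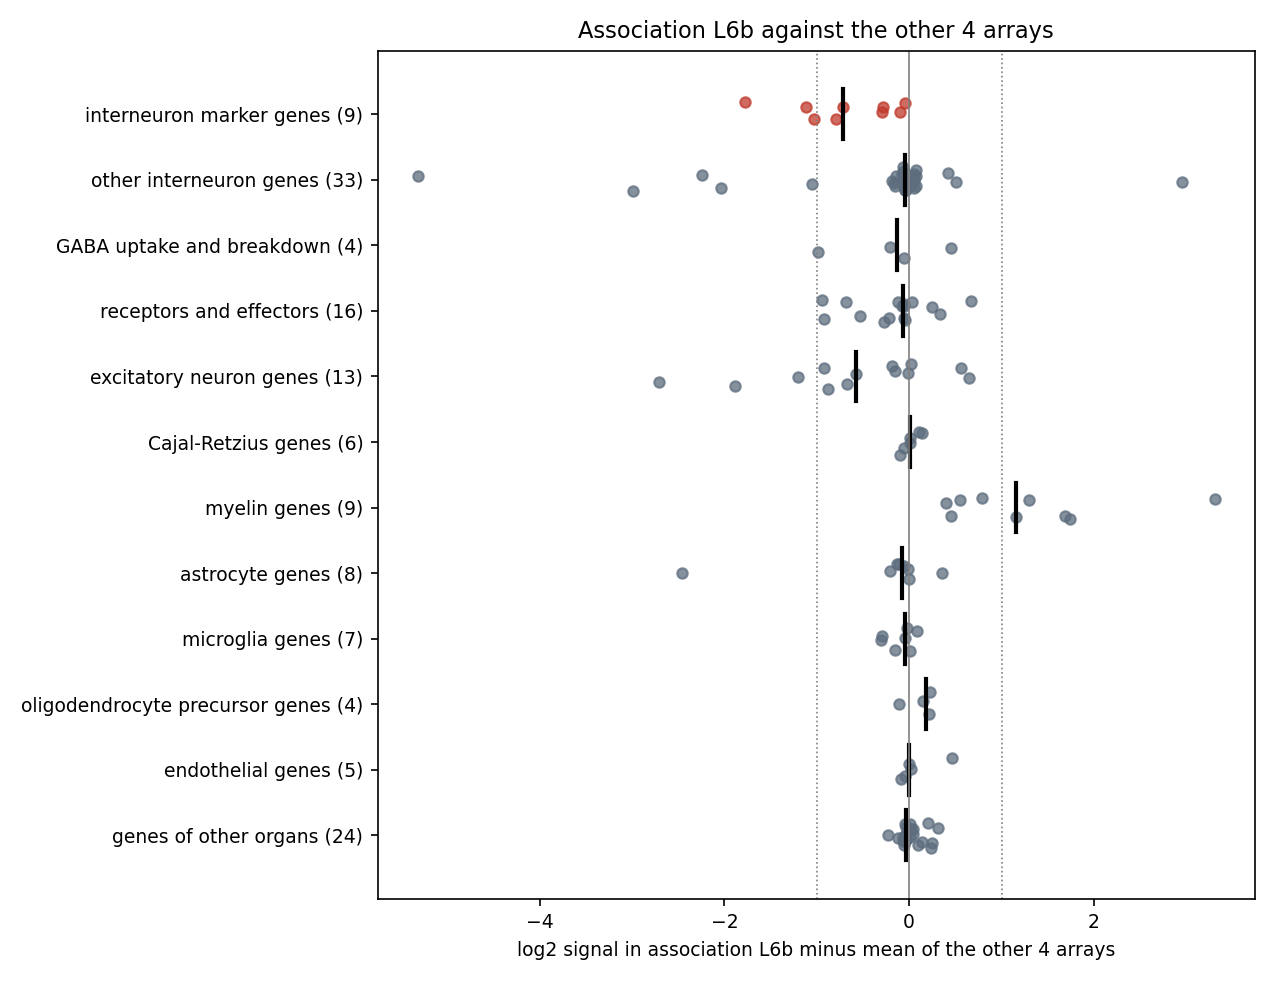
Difference of association L6b from the average of the remaining 4 arrays, in log2 (horizontal axis), for the genes of 12 lists (vertical axis, number of genes in parentheses), 1 point per gene, with black bars at the list medians and dotted lines at 2-fold. The 9 interneuron marker genes (red) lie between -1.78 and -0.05 with a median of -0.72, and the myelin genes have a median of 1.16.

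Against association L5, association L6b was at least 2-fold lower for 3 of the 9 genes, against 7.16% of the genes kept, and at least 2-fold higher for none, against 3.5%. Among the genes at the 75th percentile these shares were 12.6% and 6.29%. The 3 lower genes were *Npy* with a difference of -1.95, *Gad1* with -1.55, and *Sst* with -1.33. *Vip* ran the other way, with 0.86 more in association L6b, where association L5 had its lowest value. The median over the 9 genes was -0.20, against -0.03 over all genes kept. Against association L2/3, association L6b was at least 2-fold lower for 5 of the 9 genes, against 10.6% of the genes kept, and at least 2-fold higher for none, against 2.83%. Among the genes at the 75th percentile these shares were 18.5% and 5.06%. The median over the 9 genes was -1.01, against -0.09 over all genes kept. *Gad2* had a difference of -1.93, *Sst* of -1.78, *Npy* of -1.67, and *Gad1* and *Vip* of -1.01 each. As deposited, *Gad1* and *Vip* stood at -0.92 each and the count was 3, *Gad2*, *Sst*, and *Npy*, as it was in each of the 3 other scalings. Both comparisons use the same association L6b array.

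Between L5 and L2/3, the 9 genes had no common direction. In association neurons, *Vip* was lower in L5 by 1.87 log2 and *Gad2* by 1.73, and these 2 genes were the ones at least 2-fold lower, against 7.36% of the genes kept. None was at least 2-fold higher in association L5, against 3.48%. These shares were 12.6% and 5.79% among the genes at the 75th percentile. *Gad1* was higher in association L5 by 0.54, and the median over the 9 genes was -0.13, against -0.06. In callosal neurons, *Npy* alone was at least 2-fold lower in L5, with a difference of -2.36, against 4.52% of the genes kept, and none was at least 2-fold higher, against 4.08%. Here the shares among the genes at the 75th percentile were 7.91% and 7.22%. The next differences were 0.46 for *Gad2* and 0.42 for *Sst*, and the median was 0.11, against 0 over all genes kept.

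Between the projections, the L2/3 arrays lay within 2-fold for every gene of the set but *Gad2*. *Gad2* was higher in association L2/3 than in callosal L2/3 by 1.64 log2, a 3.12-fold difference, and was the sole gene of the 9 at least 2-fold higher, against 5.07% of the genes kept. None was at least 2-fold lower, against 3.48%. These shares were 8.51% and 5.94% among the genes at the 75th percentile. *Slc32a1* was higher by 0.56, and the other 7 genes lay between -0.29 and 0.16. In L5 the projections stood further apart. *Npy* was higher in association L5 than in callosal L5 by 2.70 log2, 6.50-fold, as the sole gene at least 2-fold higher, against 3.49% of the genes kept. *Vip* was lower by 2.27, as the sole gene at least 2-fold lower, against 4.97%. The shares for L5 were 5.8% and 8.85% among the genes at the 75th percentile. *Gad1* was higher in association L5 by 0.82, and *Sst* was lower by 0.88. The median over the 9 genes was 0.03 in L2/3 and -0.38 in L5, against 0.03 and -0.03 over all genes kept. The difference of *Npy* rests on callosal L5, its lowest array, and that of *Vip* on association L5, its lowest array. Each of these 4 arrays enters more than 1 of the comparisons.

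For 6 of the 9 genes, all but *Slc32a1*, *Lhx6*, and *Reln*, the difference between L5 and L2/3 had opposite signs in association and callosal neurons, against 26.4% of the genes kept. The difference between the projections had opposite signs in L5 and L2/3 for *Gad2* alone, against 31.7%. The layer differences of the projections lay at least 2-fold apart for *Gad2*, *Npy*, and *Vip*, against 16.2%. Among the genes at the 75th percentile these shares were, in order, 32.4%, 38.8%, and 27.1%. None of these differences was tested.

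**Figure D4:**
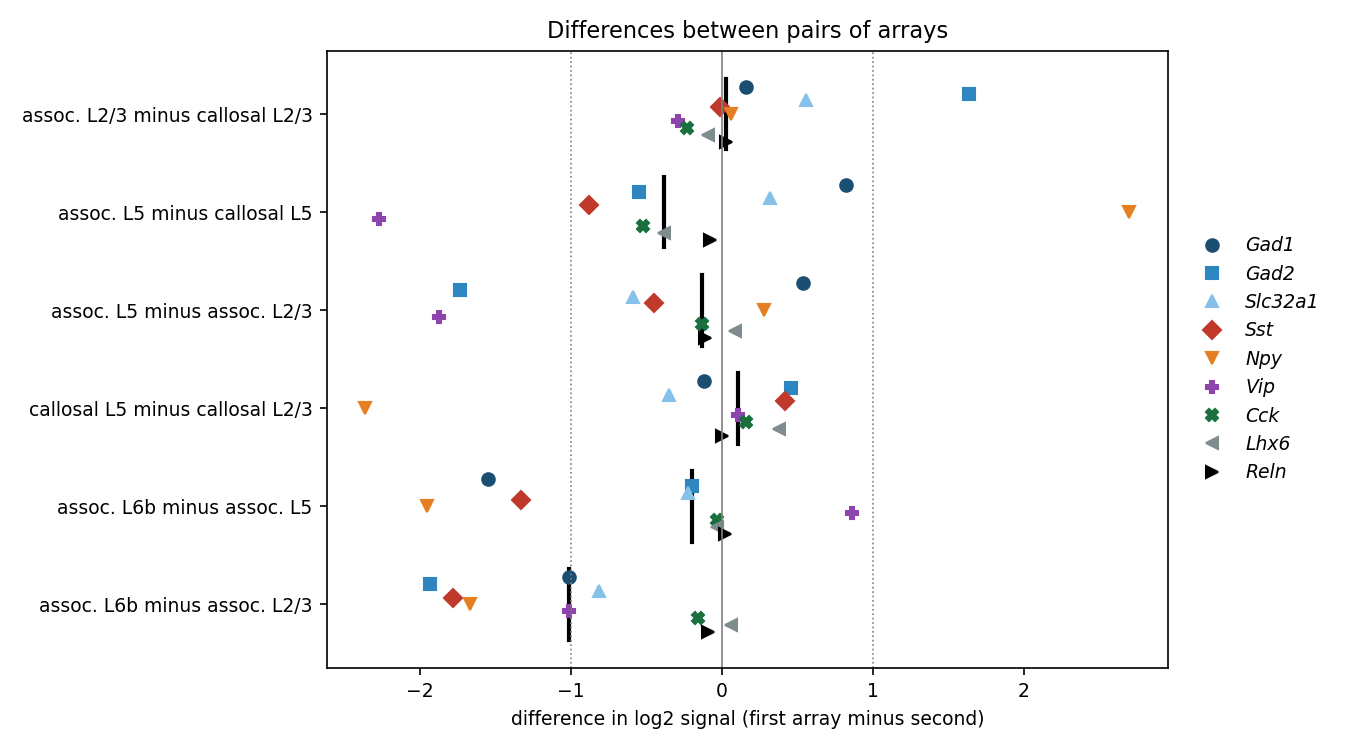
Difference in log2 signal, first array minus second (horizontal axis), for 6 pairs of arrays (vertical axis), with 1 marker per gene, black bars at the median of the 9 genes, and dotted lines at 2-fold. *Npy* lies at 2.70 and *Vip* at -2.27 between association and callosal L5, and between association L6b and association L2/3 5 genes lie at or beyond -1, of which *Gad1* and *Vip* (-1.01 each) pass the line in this scaling alone.

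Of 36 other interneuron genes, 33 had a named probe set and 22 were among the genes kept. Their median difference between association L6b and the mean of the other arrays was -0.05, with 10 lower and 6 higher in association L6b than in each other array, beside 30.5% and 21.3% of the genes kept. Among the 22 kept, 6 were lower and 6 higher. As deposited, 5 of the 33 were lower, beside 17.4% of the genes kept, and 8 were higher. No share over all genes was computed for the higher count as deposited. By at least 2-fold, 3 were lower, beside 2.82%, and 1 was higher, beside 1.26%. *Pvalb*, the gene of parvalbumin, had signals of -1.38, 4.41, and 4.57 in association L6b, L5, and L2/3, and of 4.52 and 2.26 in callosal L5 and L2/3. The low value is below the array median, so the difference of -5.32 from the mean of the other arrays rests on a dim signal. *Tac1*, the gene of substance P, stood at -1.77, 1.02, and 0.18 in association L6b, L5, and L2/3, and at 3.32 and 0.37 in callosal L5 and L2/3. *Penk*, the gene of enkephalin, had its lowest value in association L6b, 0.08, and its highest in association L2/3, 3.95. *Crh*, which encodes corticotropin-releasing hormone and marks a part of VIP cells, was the gene that ran the other way, with 3.32 in association L6b against -0.09 to 0.86 elsewhere. Several of these genes are also known from pyramidal neurons, *Penk* and *Crh* among them.

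The genes of that list shared by GABAergic classes each spanned less than 2-fold over the 5 arrays. The homeobox genes *Dlx1*, *Dlx2*, *Dlx5*, and *Dlx6*, which specify GABAergic fate, had signals between -0.54 and 0.37 over all arrays. The 7 genes of that list shared by GABAergic classes had a median difference of 0.05 between association L6b and the other arrays, and none spanned 2-fold. *Elavl2* spanned the most of them, 0.93, with its highest signal, 3.05, in association L6b, and *Erbb4* spanned 0.62. Of the 7, only *Elavl2* reached the 75th percentile of an array, so the others were dimmer. *Htr3a*, the serotonin receptor gene of caudally derived interneurons, stayed between -0.53 and -0.37. *Nos1* and *Chodl*, which with *Sst* and *Npy* mark GABAergic cells with long-range axons, lay between 0.13 and 0.26 and between -1.16 and -1.07. A low signal of a probe set does not give an amount of RNA. The 6 Cajal-Retzius genes, such as *Trp73*, stayed between -0.97 and 0.62, with a median difference of 0.01 in association L6b.

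Genes that act on the products of the 9 genes were less uniform. *Abat*, which encodes the transaminase that breaks down GABA, had signals of 2.02, 3.43, and 3.12 in association L6b, L5, and L2/3, and of 2.74 in both callosal arrays, and stood at -0.99 in association L6b against the mean of the others. The GABA transporter gene *Slc6a11* stood at 0.46. Of 16 genes of receptors for these peptides and of reelin signaling, 10 were lower and 2 higher in association L6b than in each other array, none by at least 2-fold, with a median of -0.07, beside the 30.5% and 21.3% of all genes kept. Among the 11 of them kept, 6 were lower and 2 higher. As deposited, 5 of the 16 were lower, beside 17.4% of the genes kept, and 2 were higher, for which no share over all genes was computed. The somatostatin receptor gene *Sstr2* was at -0.94 and *Sstr4* at 0.67. *Npy1r*, a receptor gene of neuropeptide Y, was at -0.69, and *Dab1*, the adaptor of reelin receptors, was at -0.92. *Sstr2* was highest in association L5, at 2.75, and *Dab1* in association L2/3, at 2.69.

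The profiles most like those of *Gad1* and *Sst* belonged to other genes than the rest of the set. Likeness was the root mean square difference between profiles centered on the mean of the 5 arrays, over 11728 other genes. Nearest to *Gad1* were *Nsmce4a* (0.068 log2), *Abat* (0.087), *Iqcb1* (0.092), *Mkks* (0.094), and *Ssu72* (0.097). Within the set, *Slc32a1* came nearest to *Gad1*, at 0.47 and position 2274, and *Gad2* stood at 0.75 and position 10063. The almost flat *Reln* stood at 0.50 from *Gad1*, so *Slc32a1* was little nearer than a gene without a pattern. Nearest to *Sst* were *Zfp386* (0.139), *Cdk14* (0.140), *Surf1* (0.143), *Rala* (0.149), and *Ttc1* (0.159). Within the set, *Cck* came nearest to *Sst*, at 0.61, followed by *Gad1* at 0.62, and *Npy* was farthest, at 1.25. With 5 arrays, likeness of profiles is a description of these values and says nothing of shared function.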

How the data were processed

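From 5 GeneChip Mouse Gene 1.0 ST arrays, the authors deposited a single table with a log2 signal for each probe set. Affymetrix Expression Console is named in the submitters' processing notes, without a version or a summary method. That the scale is log2 was read from the range of the values, up to 14.2. Genes are not centered in the table, and it was left unknown whether the values include the global normalization named in the methods. Of 35556 probe sets, 21789 carry 1 gene symbol in the platform annotation and 1621 several, and only the first were named. The median of each array (5.71 to 5.80) was subtracted, and the probe set with the highest mean stood for a gene. The background was the 12632 genes kept, those at or above an array's median in any array. The call rule was a 2-fold difference, not a test. It was tested on simulated data. Only lowered signals in association L6b were tried there, under the rule against each other array and with an assumed spread between arrays. Most of those set exactly 2-fold lower were missed. The 2-fold rules for pairs and for the mean of the other arrays were not simulated. The number of arrays limits the precision.

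The 9 genes, 13 further lists (together 170 genes, of which 159 were found), and the tests were chosen with earlier results of these data known. All 9 genes are described. Of each other list, genes were to be named if at least 2-fold apart from each other array in association L6b or among the 4 with the largest difference there, and for *Gad1* and *Sst* the 5 nearest profiles. Flat genes, such as the *Dlx* genes, *Htr3a*, *Nos1*, and *Chodl*, together with *Slc17a7* and the layer markers were named for their roles after their values were seen. Not every gene of the rule is printed. Alternatives were 4 other scalings, all probe sets of a gene, 2 filters, other thresholds, and each array left out. Python 3.11.15, pandas, and NumPy were used.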

Additional observations from a re-analysis of the deposited data

Results flagged for a closer look

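For 6 of the 9 genes the difference between L5 and L2/3 had opposite signs in association and callosal neurons, as deposited and after subtraction of the medians, against 26.4% of the genes kept. The share was 32.4% among the genes at the 75th percentile. The differences were not tested, since each value rests on 1 array. For *Npy* the difference was 0.28 in association and -2.36 in callosal neurons, 2.64 apart. For *Gad2* it was -1.73 and 0.46, -2.19 apart, and for *Vip* -1.87 and 0.11, -1.98 apart. For *Sst* it was -0.45 and 0.42, -0.87 apart, and for *Gad1* 0.54 and -0.12, 0.66 apart. For *Cck* it was -0.13 and 0.16, -0.29 apart. *Gad2* was also the sole gene of the 9 whose association minus callosal difference changed sign between the layers, -0.55 in L5 and 1.64 in L2/3, -2.19 apart, against 31.7% of the genes kept. These are the same 4 arrays read the other way round. The difference between the contrasts was at least 2-fold for *Gad2*, *Npy*, and *Vip*, against 16.2% of the genes kept and 27.1% of those at the 75th percentile.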

How the results depend on the processing

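The count of genes at least 2-fold lower in association L6b than in each other array, 1 in the report, was 2 without the association L5 array, 2 without the callosal L5 array, 2 at a threshold of 1.5-fold, and 0 at 4-fold, as these choices leave out an array or move the line. Without association L5, *Vip* passed at -1.01 against association L2/3, a difference of -0.92 as deposited. The median difference of association L6b from the other arrays, -0.72, was -1.41 against the highest of them in place of their mean, and ranged from -0.84 to -0.41 with 1 array left out. Counts chosen for repetition after seeing the data were those at least 2-fold below the mean of the other arrays, 3 in the report and 1 after quantile normalization, and those of the pairs. For association L6b against association L2/3, the count of genes at least 2-fold lower, 5, was 3 in each of the 4 other scalings, and the 2-fold counts of the other pairs were the same in all 4. The count of genes lower in association L6b than in each other array, 4, ranged from 3 to 6. The median difference between association L5 and association L2/3, -0.13, ranged from -0.45 to -0.03, and that between the L2/3 arrays, 0.03, from -0.01 to 0.06. Of 81 alternative values of single genes in association L6b that could differ, 4 moved by more than 1.5-fold, for *Gad2*, *Npy*, and *Vip*, 76 had the sign given in the report, 4 the opposite sign, for *Reln* and *Lhx6*, and 1 was 0, for *Lhx6*. Averaging the probe sets of a gene could change nothing, since each of the 9 has 1. No paired analysis was possible because each group has 1 array and the labels give no replicate numbers. Signal over background is not in the table, so a low signal could not be called absent.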

Other observations

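Median differences between association L6b and the mean of the other 4 arrays are given here for further lists. The median difference was -0.08 over 8 astrocyte genes, -0.04 over 7 microglia genes, 0.18 over 4 oligodendrocyte precursor genes, and 0.00 over 5 endothelial genes. The astrocyte list held 1 gene at least 2-fold lower in association L6b than in each other array, *Aldoc*, at -2.46, beside 2.82% of the genes kept. Of 4 genes of GABA uptake and breakdown the median was -0.13, and of 9 housekeeping genes it was -0.06. The layer markers had medians of 2.50 for L6b, -0.89 for L5, and -1.27 for L2/3, over 4 genes each. Genes of other organs had a median of -0.03 over 24 genes.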
